A study of Mus musculus with 15 samples.

Results

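Transforming growth factor beta (TGF-β) genes were followed in mouse cells that move between a stromal and a hepatocyte state. The 10 genes are the ligands Tgfb1, Tgfb2 and Tgfb3, the receptors Tgfbr1, Tgfbr2 and Tgfbr3, the signal transducers Smad3 and Smad7, and the latent TGF-β binding proteins Ltbp1 and Ltbp2. They were chosen by symbol, and all 24 of their probe sets, out of 45101 on the array, were read. All 10 are among the 18193 genes that could be tested. Gene expression was measured on 15 Affymetrix mouse arrays, 3 for each of 5 groups.

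MLC are primary hepatocytes moved to the stromal cell medium with recombinant TGF-β1, at 10 ng/ml up to day 7, 5 ng/ml up to day 14 and 1 ng/ml up to day 28. The labels name this medium without TGF-β1 for the time after that. HD28 cells are mesenchymal stromal cells (MSC) that received a hepatogenic protocol, and dHD28 cells are HD28 cells put back in MSC medium. The protocol gave hepatocyte growth factor (20 ng/ml), basic fibroblast growth factor (10 ng/ml) and nicotinamide (0.61 g/L) for 7 days, then oncostatin M (20 ng/ml), dexamethasone (1 µmol/L) and an insulin, transferrin and selenium supplement. Hepatocyte denotes primary hepatocytes in DMEM/F12 with 10% serum, and MSC denotes the stromal cells in low-glucose DMEM with 10% serum. No other group has TGF-β1 listed in its medium. The day of harvest, strain, age and sex are not given in the labels used here, and nothing says that the 3 samples of a group came from separate animals or cultures, so the p-values measure the spread between these samples, which may be technical.

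TGF-β is secreted as a latent complex, in which its own propeptide holds the growth factor and a latent TGF-β binding protein can tether the complex to the extracellular matrix. Once released, it binds the type II receptor Tgfbr2, which activates the type I receptor Tgfbr1. The type I receptor phosphorylates Smad2 and Smad3, which enter the nucleus with Smad4, and Smad7, itself a target of the pathway, inhibits the receptors. In liver, TGF-β restrains hepatocyte growth and drives matrix production by activated stellate cells, and it can push cultured hepatocytes towards a mesenchymal form.

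Values are log2 expression by robust multi-array average, and a level of one gene was never set against that of another. The lower quartile of an array lay between 3.43 and 3.70, and readings near or under it carry little information on size. The hepatocyte markers Alb, Apoa1, Ttr, Fgb, Cps1, Cyp2e1, Hnf4a and Tat averaged 12.92 to 13.15 in the Hepatocyte arrays. In MLC, dHD28 and MSC arrays the same 8 markers averaged 4.40 to 4.84. HD28 replicate 3 stood apart, with a hepatocyte marker mean of 11.74, against 4.37 and 4.66 in the other HD28 arrays (summed on the linear scale, 44090 against 191 and 240, with 80194 to 86452 in Hepatocyte arrays). Stromal markers averaged 8.28 to 8.44 in every array other than the Hepatocyte ones, which had 4.92 to 5.94. Poly-A control RNA signal split the arrays into 6 of high signal (7.61 to 8.73) and 9 of low signal (4.87 to 5.61), with both classes in each group. Between the classes Tgfb2 (-1.21, high minus low, adjusted p = 0.015), Tgfbr1 (-0.69, adjusted p = 0.0088) and Tgfbr3 (-0.90, adjusted p = 0.0079) differed in limma with group as a term and no fold limit. The share of all genes that differed between the classes was not counted, so these genes are not set apart by this. Values of these 3 genes within a class are given where they differ most from those over all arrays. Results that rest on HD28 replicate 3 are given with and without it.

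All 10 genes differed somewhere among the 5 groups (moderated F test in limma, adjusted p from 1.5e-08 for Ltbp1 to 0.035 for Smad3), as did 46.8% of all genes. Between 2 groups, a gene passed where its levels differed at least 2-fold and the adjusted p was below 0.05. In HD28 cells 1 of 10 genes passed against MSC, Ltbp2, which fell, where 6.77% of all genes passed (3.24% higher and 3.52% lower). On return to MSC medium 4 of 10 passed between dHD28 and HD28, where 8.82% of all genes passed (4.63% higher and 4.19% lower): Ltbp2 and Smad7 rose, and Tgfbr2 and Tgfbr3 fell. In Hepatocyte against MSC 8 of 10 genes were lower, as were 18.3% of all genes, and Tgfbr1 was higher, as were 11.8% of all genes (30.1% either way). In MLC against Hepatocyte the same 8 were higher, with 18.4% of all genes, and Tgfbr1 was lower, with 12% of all genes (30.5% either way). Smad3 missed the fold limit in both. These last comparisons share the Hepatocyte arrays, so they are no independent readings.

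Against MSC, no member passed in dHD28 (0% of all genes passed) or in MLC (0%), and none passed between MLC and dHD28 (0%). At an unadjusted p under 0.05 the limma fit had 1 member and 205 of 18193 genes in dHD28 against MSC, 0 and 91 in MLC against MSC, and 0 and 64 in MLC against dHD28. The arrays of the groups did not overlap for 5 of 10 members in HD28 against MSC (29.7% of all genes), 4 in dHD28 against HD28 (29.4%), all 10 in Hepatocyte against MSC (52.6%) and all 10 in MLC against Hepatocyte (57%). They did not overlap for 1 member in dHD28 against MSC (4.94%), 0 in MLC against MSC (5.28%) and 1 in MLC against dHD28 (3.49%). Since whole cultures were read, fewer cells of a type and less RNA per cell cannot be told apart.

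**Figure D1:**
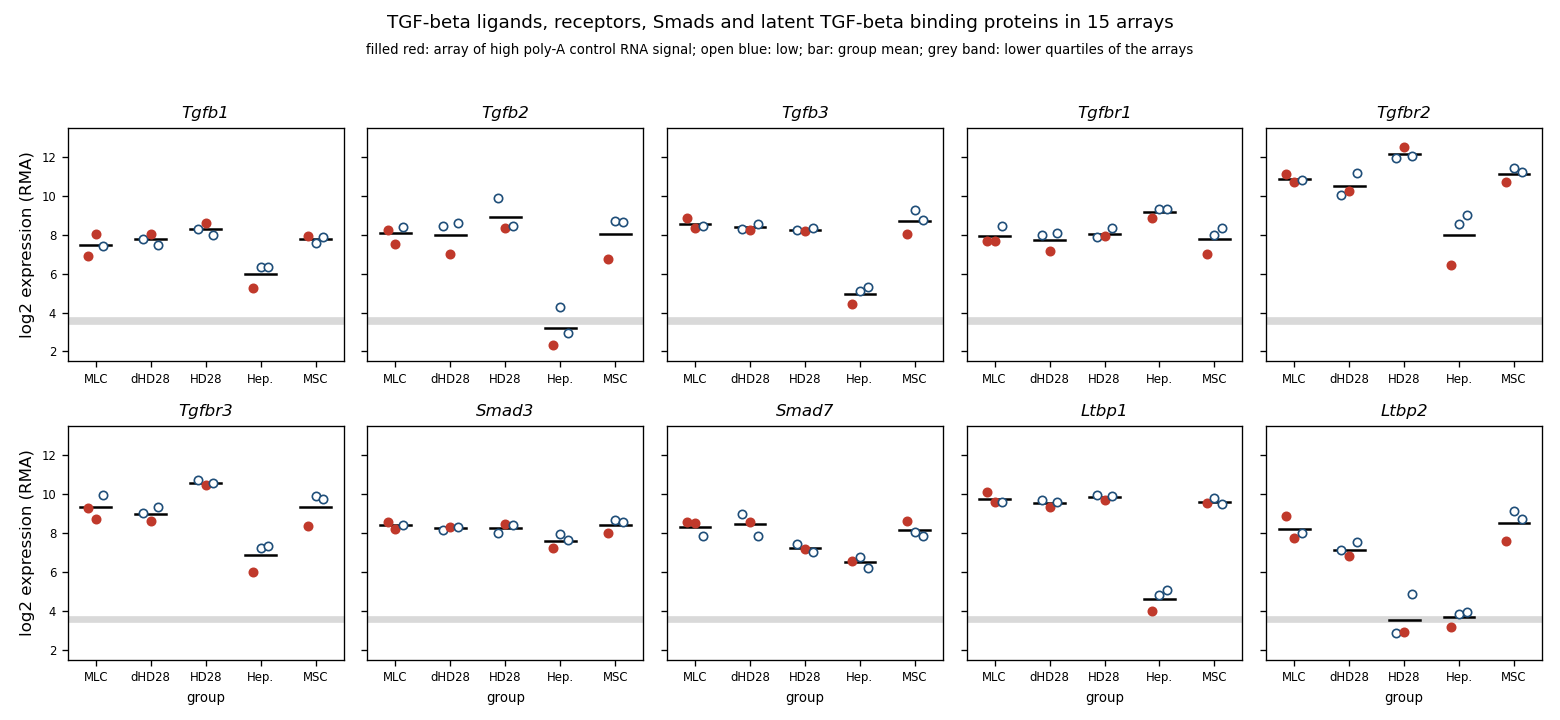
Log2 expression (vertical axis) of the 10 genes in MLC, dHD28, HD28, Hepatocyte (Hep.) and MSC, with 1 point per array, a bar at the mean of 3 arrays, filled red points for arrays of high control RNA signal, open blue points for low, and a grey band over the lower quartiles of the arrays. Ltbp2 is low in HD28 and Hepatocyte, and the Hepatocyte arrays are apart from MSC for every gene.

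All 3 ligands were lower in primary hepatocytes than in MSC, and none passed between HD28 and MSC. Tgfb1, the best studied isoform, read 6.88, 8.03 and 7.44 in MLC, 7.79, 8.05 and 7.48 in dHD28, 8.31, 8.58 and 7.99 in HD28, 5.24, 6.31 and 6.32 in Hepatocyte, and 7.94, 7.55 and 7.85 in MSC. Every Hepatocyte array was below every other array, and replicate 1 was the lowest of the 3. The Hepatocyte difference from MSC was -1.82 (SE 0.32, 3.53-fold, adjusted p = 4.0e-04), and MLC minus Hepatocyte was 1.49 (SE 0.32, 2.81-fold, adjusted p = 0.0018). The 3 HD28 arrays lay just above the 3 MSC arrays, but the difference of 0.51 (95% interval -0.19 to 1.21) did not pass (adjusted p = 0.37). MLC, the cells given TGF-β1 protein, differed from MSC by -0.33 (-1.03 to 0.37). The other Tgfb1 probe set stayed between 4.11 and 4.87 in all arrays and did not pass in Hepatocyte against MSC (-0.16, adjusted p = 0.55, where 26.1% of the 34945 probe sets with 1 gene symbol passed). With the mean of both probe sets the Hepatocyte differences were -0.99 against MSC and 0.80 for MLC against Hepatocyte, under the fold limit.

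Tgfb2 had the widest span among the ligands. It read 8.26, 7.52 and 8.42 in MLC, 8.43, 7.00 and 8.60 in dHD28, 9.89, 8.35 and 8.47 in HD28, 2.35, 4.30 and 2.94 in Hepatocyte, and 6.77, 8.69 and 8.67 in MSC. The Hepatocyte arrays were at least 2 units below all others, with 2 of 3 under the lower quartile, so the size there is approximate. Hepatocyte minus MSC was -4.85 (SE 0.65, 28.7-fold, adjusted p = 3.5e-05) and MLC minus Hepatocyte was 4.87 (SE 0.65, 29.1-fold, adjusted p = 3.3e-05).

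All 4 probe sets of Tgfb2 passed as lower in Hepatocyte than in MSC (16% of the 34945 were lower), by -2.60 to -4.85. In HD28 against MSC the same 4 gave 0.74 to 1.00, with adjusted p-values of 0.39 to 0.60, where 5.52% of these probe sets passed. HD28 replicate 1 was the highest array in each of the 4. In all 5 groups the lowest array of the brightest probe set was one of high control RNA signal. Within that class Tgfb2 differed by 1.58 between HD28 and MSC, against 0.50 in the class of low signal. With the class as a block and HD28 replicate 3 left out, Tgfb2 passed as higher in HD28 (1.30, adjusted p = 0.043) and as lower in dHD28 than in HD28 (-1.33, adjusted p = 0.033). The part of the class in this was not tested.

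**Figure D2:**
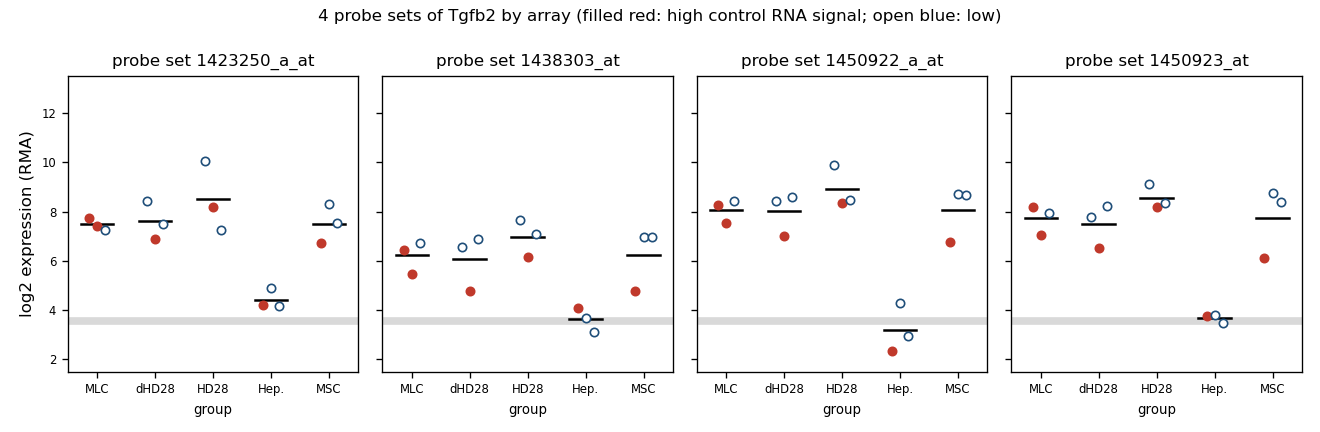
Log2 expression (vertical axis) of each of the 4 Tgfb2 probe sets in MLC, dHD28, HD28, Hepatocyte (Hep.) and MSC, with 1 point per array, bars at the mean of 3, filled red for high control RNA signal and open blue for low. In all 4 the Hepatocyte arrays lie lowest, and the spread in HD28 and MSC is of the size of their difference.

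Tgfb3 read 8.87, 8.34 and 8.44 in MLC, 8.31, 8.26 and 8.54 in dHD28, 8.26, 8.20 and 8.33 in HD28, 4.43, 5.13 and 5.33 in Hepatocyte, and 8.05, 9.28 and 8.73 in MSC. The 12 arrays of the other 4 groups of its single probe set lay between 8.05 and 9.28, and all 3 Hepatocyte arrays were lower. Its Hepatocyte minus MSC value was -3.73 (SE 0.29, 13.2-fold, adjusted p = 3.3e-07), and MLC minus Hepatocyte was 3.59 (SE 0.29, 12.0-fold, adjusted p = 4.3e-07). HD28 minus MSC was -0.43 (95% interval -1.04 to 0.19, adjusted p = 0.41). The 3 HD28 arrays lay close together, with an SD of 0.07, against an SD of 0.62 in MSC.

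The promoter of Tgfb2 is shown because this ligand had the largest ligand difference. Tgfb2 is one of the 7 members whose promoter windows were read here (9 windows in all), from the RefSeq table of GRCm38.p6. The window runs from 250 bases before to 50 bases after the annotated start, at chr1:186705940-186706239 on the minus strand. Capitals mark CAGAC or its reverse complement GTCTG, the short letters that Smad proteins are known to bind.
Tgfb2: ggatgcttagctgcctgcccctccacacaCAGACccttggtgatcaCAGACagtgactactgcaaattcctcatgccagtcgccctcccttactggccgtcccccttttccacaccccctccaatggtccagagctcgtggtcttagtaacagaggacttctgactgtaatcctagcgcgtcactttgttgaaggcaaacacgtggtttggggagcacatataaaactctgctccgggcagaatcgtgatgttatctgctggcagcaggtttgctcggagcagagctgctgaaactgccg
The letters occurred at -221 and -204 from the start, and TATAAA occurred at -31. CAGAC on either strand was found in 6 of the 9 member windows and in 49.6% of all 32851 windows, and TATAAA in 13.6%, so such letters are common and a match is only a description.

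Of the receptors, read by their brightest probe sets, Tgfbr2 and Tgfbr3 were higher in HD28 than in dHD28 and lowest in Hepatocyte, whereas Tgfbr1 was highest in Hepatocyte. Tgfbr1, the type I receptor kinase, read 7.69, 7.65 and 8.43 in MLC, 7.99, 7.16 and 8.09 in dHD28, 7.87, 7.93 and 8.33 in HD28, 8.85, 9.32 and 9.32 in Hepatocyte, and 6.98, 7.97 and 8.35 in MSC. All Hepatocyte arrays were above all others. Tgfbr1 was higher in Hepatocyte than in MSC by 1.40 (SE 0.35, 2.63-fold, adjusted p = 0.0048), and MLC minus Hepatocyte was -1.24 (SE 0.35, 2.37-fold, adjusted p = 0.0096). The other 2 probe sets of Tgfbr1 were dim, near 3 to 4 in most arrays, and gave 0.48 (adjusted p = 0.46) and 1.03 (adjusted p = 0.11) for Hepatocyte minus MSC. With the mean of the 3 probe sets neither call was kept (0.97 with adjusted p = 0.026, and -0.72 with adjusted p = 0.083). Within the control RNA classes Tgfbr1 gave 1.87 (high) and 1.16 (low) for Hepatocyte minus MSC, and -1.18 and -0.90 for MLC minus Hepatocyte. In HD28 minus MSC it gave 0.95 and -0.06, beside 0.28 over all arrays, which did not pass.

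Tgfbr2, the type II receptor that binds the ligand first, read 11.09, 10.72 and 10.82 in MLC, 10.06, 10.25 and 11.16 in dHD28, 11.92, 12.49 and 12.02 in HD28, 6.43, 8.54 and 9.00 in Hepatocyte, and 10.68, 11.44 and 11.22 in MSC. In this probe set, the brightest of 3, the HD28 arrays were the 3 highest of the 15 and the Hepatocyte arrays the 3 lowest. HD28 minus MSC was 1.03 (SE 0.52, 2.05-fold), which did not pass (adjusted p = 0.25). It passed without Hepatocyte replicate 1 (adjusted p = 0.040), the array with the lowest Tgfbr2. The fall in dHD28 against HD28 was -1.66 (SE 0.52, 3.15-fold, adjusted p = 0.0497). That call stood at the edge of the threshold and was lost when any of 11 single arrays was left out, with adjusted p-values up to 0.17. Without HD28 replicate 3 it was -1.72 (adjusted p = 0.093). The second probe set gave -0.84 (adjusted p = 0.36), with HD28 replicate 3 at 6.95, below every array of MLC, dHD28 and MSC. Tested among all named probe sets, 0 of the 3 Tgfbr2 probe sets passed there. With the mean of the 3 the call was lost (-0.85, adjusted p = 0.063).

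In Hepatocyte minus MSC, Tgfbr2 was -3.12 (SE 0.52, 8.69-fold, adjusted p = 2.2e-04), and MLC minus Hepatocyte was 2.89 (SE 0.52, 7.39-fold, adjusted p = 4.2e-04). Hepatocyte replicate 1, at 6.43, was well below the other Hepatocyte arrays. In the same array the Kupffer cell markers averaged 6.33 against 7.74 and 7.93, the stellate cell markers 5.32 against 7.46 and 7.55, and the endothelial markers 5.51 against 6.47 and 6.57. Summed on the linear scale, the 8 Kupffer cell markers came to 795 to 2505 in Hepatocyte arrays and 189 to 209 in MSC arrays, the 6 endothelial markers to 351 to 776 and 100 to 116, and the 6 stellate cell markers to 434 to 2217 and 2535 to 2914. The stellate cell sum in MSC is mostly Pdgfrb, with means of 11.34 in MSC and 4.95 in Hepatocyte. Of these 6 markers 4 passed as higher in Hepatocyte than in MSC (Lrat, Reln, Rgs5 and Hand2) and 1 as lower (Pdgfrb), where 11.8% of all genes were higher and 18.3% lower. No marker of these lists had a Hepatocyte mean under the lower quartile. Among the Hepatocyte arrays, 9 of the 10 genes, all but Smad7, read lowest in replicate 1 by their brightest probe sets. How many of all genes did so was not counted. Other probe sets of the members did not all follow. The second of Tgfbr3 read 6.29 in replicate 1, against 5.05 and 5.86, and the second of Tgfbr2 read 4.66, against 4.72 and 5.33. Replicate 1 is also the only Hepatocyte array of high control RNA signal (8.45, against 5.55 and 5.61), so class and cell content cannot be told apart in it. The part of other liver cells in these levels was not tested. The second Tgfbr2 probe set was also lower in Hepatocyte (-2.59, adjusted p = 0.0011), and the third read 2.07 to 2.67 in all 15 arrays and carries no information.

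Tgfbr3 encodes betaglycan, a co-receptor that presents TGF-β, and TGF-β2 above all, to the type II receptor. It read 9.29, 8.73 and 9.98 in MLC, 9.05, 8.64 and 9.32 in dHD28, 10.72, 10.46 and 10.56 in HD28, 5.99, 7.22 and 7.36 in Hepatocyte, and 8.35, 9.92 and 9.73 in MSC. Again, in the leading probe set, the HD28 arrays were the 3 highest of all and the Hepatocyte arrays the 3 lowest. HD28 minus MSC was 1.25 (SE 0.45, 2.38-fold) and did not pass (adjusted p = 0.099). With the control RNA class as a block it passed (1.25, adjusted p = 0.0052), and the value was 2.12 within the high class and 0.82 within the low class. It passed also with the mean of both probe sets (1.16, adjusted p = 0.025).

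In dHD28 against HD28 Tgfbr3 fell by 1.58 on the log2 scale (SE 0.45, 2.99-fold, adjusted p = 0.032), with -1.82 and -1.46 within the high and low class. It lost its call without any HD28 array or without dHD28 replicate 1 or 2, where the value was -1.64 to -1.40 and the adjusted p 0.072 to 0.12. The second probe set gave -0.67 (adjusted p = 0.43, where 7.51% of the named probe sets passed). The Hepatocyte value less that of MSC was -2.47 (SE 0.45, 5.56-fold, adjusted p = 4.5e-04) for the leading probe set, and -0.14 (adjusted p = 0.84) for the second, so the 2 disagree there. MLC minus Hepatocyte was 2.48 (SE 0.45, 5.56-fold, adjusted p = 4.3e-04) for the leading probe set. The second averaged 6.09 in MLC and 5.73 in Hepatocyte and did not pass, so the 2 disagree here too.

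**Figure D3:**
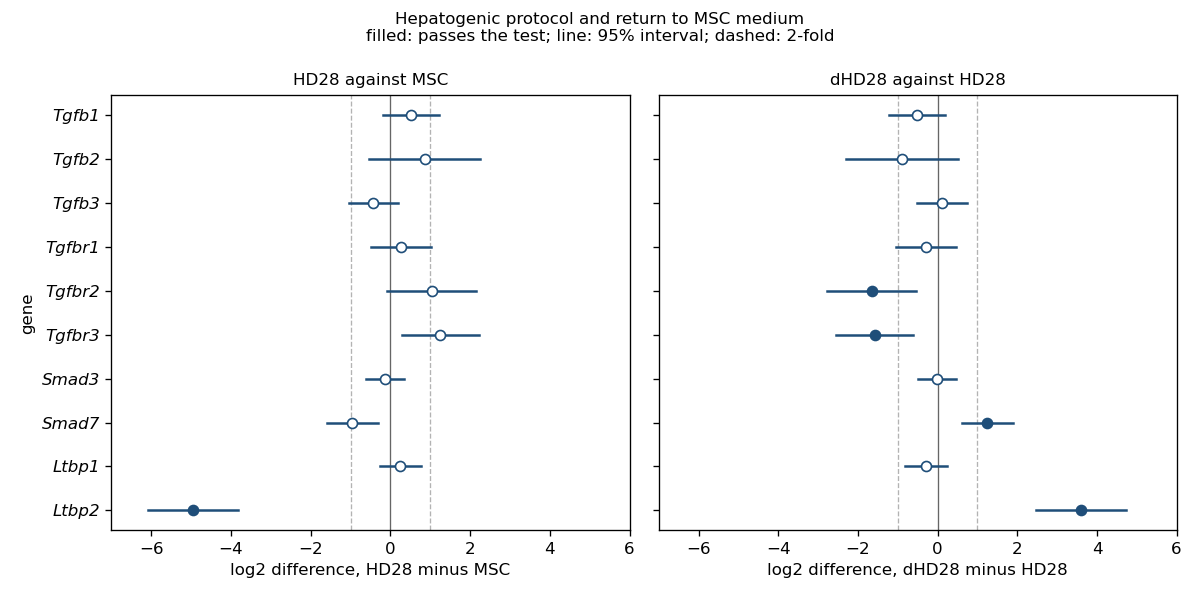
Log2 difference (horizontal axis) of each of the 10 genes (vertical axis) for HD28 minus MSC (left) and dHD28 minus HD28 (right), with 95% intervals from the limma fit, filled points where the test was passed and dashed lines at a fold of 2. Ltbp2 passes in both panels at -4.95 and 3.61, and Tgfbr2, Tgfbr3 and Smad7 pass in the right panel.

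Of the 2 Smads, Smad7 passed in several comparisons and Smad3 in none. Smad3, which carries the signal from the receptor to the nucleus, read 8.58, 8.20 and 8.44 in MLC, 8.14, 8.32 and 8.34 in dHD28, 7.99, 8.45 and 8.40 in HD28, 7.24, 7.98 and 7.62 in Hepatocyte, and 8.01, 8.67 and 8.57 in MSC. The Hepatocyte arrays were below all the others, the highest of them at 7.98 and the lowest other array, in HD28, at 7.99. Smad3 differed between Hepatocyte and MSC by -0.80 (SE 0.22, 1.74-fold, adjusted p = 0.0085) and MLC minus Hepatocyte was 0.79 (SE 0.22, 1.73-fold, adjusted p = 0.0090), both under the fold limit. Without MSC replicate 1 the first passed (adjusted p = 0.0023), and with centring on housekeeping genes the values were -0.13 (adjusted p = 0.64) and 0.07 (adjusted p = 0.79). The other 2 Smad3 probe sets gave -0.11 (adjusted p = 0.87) and -0.80 (adjusted p = 0.071) for Hepatocyte minus MSC. In HD28 minus MSC the 95% interval ran from -0.61 to 0.33 around -0.14, and in dHD28 minus HD28 from -0.49 to 0.46 around -0.01, so a 2-fold change lies outside both intervals.

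Smad7, the inhibitory Smad, read 8.57, 8.53 and 7.87 in MLC, 8.99, 8.57 and 7.86 in dHD28, 7.45, 7.18 and 7.05 in HD28, 6.56, 6.77 and 6.23 in Hepatocyte, and 8.65, 8.04 and 7.86 in MSC. Each HD28 array was below each array of MLC, dHD28 and MSC, and above each Hepatocyte array. HD28 minus MSC was -0.95 (SE 0.30, 1.94-fold, adjusted p = 0.060) and did not pass. The return in dHD28 did: Smad7 rose by 1.24 (SE 0.30, 2.37-fold, adjusted p = 0.014). Both probe sets of Smad7 passed there (1.24 and 1.08, where 4.08% of named probe sets were higher), and in HD28 against MSC they gave -0.95 (adjusted p = 0.072) and -0.97 (adjusted p = 0.020, under the fold limit).

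The Smad7 call in dHD28 was lost without dHD28 replicate 1 (0.98, adjusted p = 0.069) or replicate 2 (1.19, adjusted p = 0.051), and was kept without HD28 replicate 3 (1.15). In Hepatocyte against MSC Smad7 fell by 1.66 on the log2 scale (SE 0.30, 3.17-fold, adjusted p = 4.2e-04), and in MLC against Hepatocyte it rose by 1.80 (SE 0.30, 3.49-fold, adjusted p = 2.1e-04). MLC, at 8.32 ± 0.40 (SD, n = 3), differed from dHD28, at 8.47 ± 0.57, by -0.15 (95% interval -0.79 to 0.49), and from MSC, at 8.18 ± 0.41, by 0.14 (-0.50 to 0.78).

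The latent TGF-β binding proteins Ltbp1 and Ltbp2 were both lower in hepatocytes than in MSC, while in HD28 cells Ltbp2 fell and Ltbp1 did not pass. Ltbp1, which binds latent TGF-β and anchors it in the matrix, read 10.13, 9.62 and 9.57 in MLC, 9.73, 9.34 and 9.62 in dHD28, 9.95, 9.72 and 9.89 in HD28, 4.02, 4.84 and 5.06 in Hepatocyte, and 9.54, 9.79 and 9.48 in MSC. The 12 arrays other than the Hepatocyte ones lay between 9.34 and 10.13, and the Hepatocyte arrays were more than 4 units lower. The difference of Hepatocyte from MSC was -4.96 (SE 0.24, 31.2-fold, adjusted p = 1.1e-08), and MLC minus Hepatocyte was 5.14 (SE 0.24, 35.2-fold, adjusted p = 8.9e-09). HD28 minus MSC was 0.25 (95% interval -0.27 to 0.77, adjusted p = 0.59). Of its 3 probe sets 2 passed as lower in Hepatocyte, by -4.96 and -2.28, and the third gave -0.66 (adjusted p = 0.012).

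Ltbp2 belongs to the same family and to the matrix around elastic fibres, but is known not to bind latent TGF-β itself. It read 8.86, 7.77 and 8.02 in MLC, 7.13, 6.80 and 7.53 in dHD28, 2.87, 2.93 and 4.85 in HD28, 3.20, 3.86 and 3.94 in Hepatocyte, and 7.58, 9.16 and 8.74 in MSC. HD28 and Hepatocyte arrays were low and overlapped, with the highest of them at 4.85, and the other 9 arrays were all higher, the lowest at 6.80. HD28 minus MSC was -4.95 (SE 0.52, 30.8-fold, adjusted p = 7.6e-05), and dHD28 minus HD28 was 3.61 (SE 0.52, 12.2-fold, adjusted p = 6.2e-04). HD28 replicates 1 and 2 were under the lower quartile of their arrays, so these sizes are approximate.

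HD28 replicate 3, with its hepatocyte marker signal, was the highest HD28 array for Ltbp2. Without it HD28 minus MSC was -5.60 and dHD28 minus HD28 was 4.26, and both passed. Within the classes of control RNA HD28 minus MSC was -4.65 (high) and -5.09 (low). All 28 alternative settings tried kept both calls, with values of -5.60 to -4.60 and of 3.27 to 4.26. For Hepatocyte minus MSC Ltbp2 gave -4.83 (SE 0.52, 28.4-fold, adjusted p = 5.8e-06), and MLC minus Hepatocyte was 4.55 (SE 0.52, 23.4-fold, adjusted p = 9.5e-06). Of the 3 Hepatocyte arrays 1 was under its lower quartile, and their mean was 3.67, so these sizes are approximate too.

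After return, Ltbp2 averaged 7.16 ± 0.37 in dHD28 and 8.49 ± 0.82 in MSC (SD, n = 3 each), and every dHD28 array was below every MSC array. The difference of -1.34 (95% interval -2.47 to -0.21, SE 0.52) had an unadjusted p of 0.024 in limma and an adjusted p of 1.0, and did not pass. MLC, at 8.21 ± 0.57, lay above dHD28 in every array, by 1.06 (-0.07 to 2.19), which did not pass either. Against MSC it differed by -0.28 (-1.41 to 0.85), with 0.73 within the high class and -0.93 within the low class. The values within the classes ran the same way for dHD28 minus MSC (-0.78 and -1.62) and for MLC minus dHD28 (1.51 and 0.69).

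The promoters of both binding proteins are shown because these genes had unlike profiles in HD28 cells. Both windows of Ltbp1, at chr17:75005279-75005578 and chr17:75178531-75178830 on the plus strand, belong to different annotated starts. The window of Ltbp2 is at chr12:84876442-84876741 on the minus strand. Capitals mark CAGAC or GTCTG as above.
Ltbp1, first start: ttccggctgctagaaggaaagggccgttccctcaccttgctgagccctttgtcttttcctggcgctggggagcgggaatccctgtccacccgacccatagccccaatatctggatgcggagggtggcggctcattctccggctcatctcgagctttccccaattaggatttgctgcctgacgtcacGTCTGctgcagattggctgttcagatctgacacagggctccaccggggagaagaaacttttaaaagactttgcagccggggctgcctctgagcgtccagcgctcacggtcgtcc
Ltbp1, second start: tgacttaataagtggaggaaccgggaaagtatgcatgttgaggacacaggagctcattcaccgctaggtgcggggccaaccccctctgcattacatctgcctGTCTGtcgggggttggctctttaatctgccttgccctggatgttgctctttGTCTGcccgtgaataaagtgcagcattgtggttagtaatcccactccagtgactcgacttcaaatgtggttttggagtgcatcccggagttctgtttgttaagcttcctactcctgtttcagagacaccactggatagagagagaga
Ltbp2: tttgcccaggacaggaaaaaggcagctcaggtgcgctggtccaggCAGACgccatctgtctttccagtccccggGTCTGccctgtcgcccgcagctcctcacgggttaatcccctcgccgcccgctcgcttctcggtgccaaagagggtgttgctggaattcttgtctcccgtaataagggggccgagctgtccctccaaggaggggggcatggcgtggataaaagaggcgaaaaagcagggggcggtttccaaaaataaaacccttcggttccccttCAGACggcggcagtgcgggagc
Ltbp2 had the letters at -205, -176 and 28 from the start, Ltbp1 at -64 in the first window and at -148 and -97 in the second. With such letters in 49.6% of all windows, these counts do not set either gene apart.

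**Figure D4:**
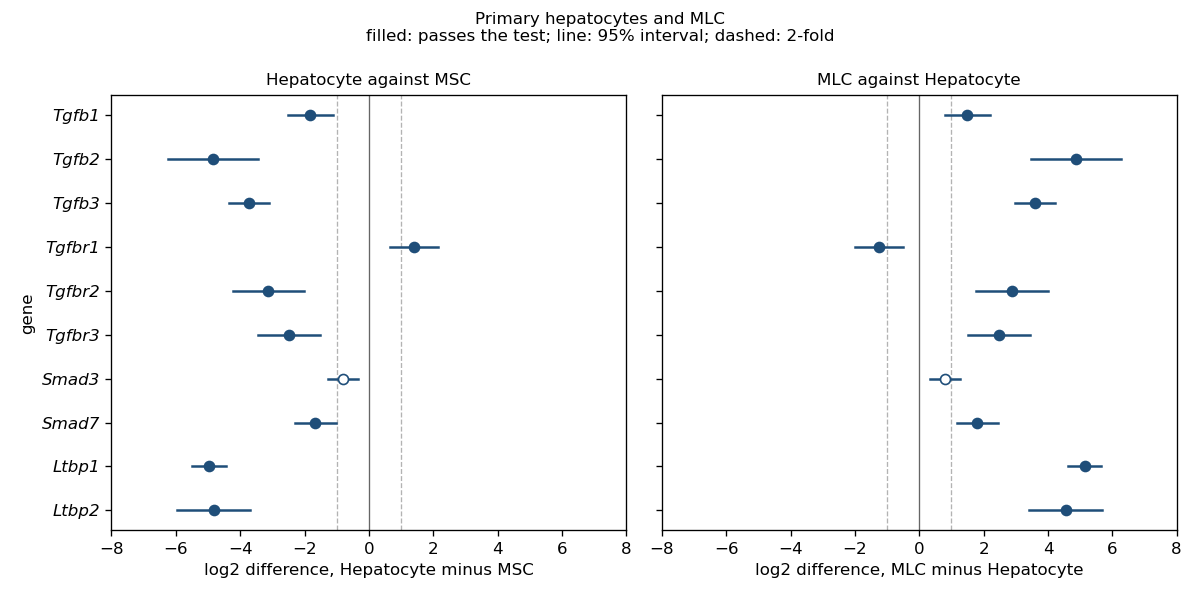
Log2 difference (horizontal axis) of each of the 10 genes (vertical axis) for Hepatocyte minus MSC (left) and MLC minus Hepatocyte (right), with 95% intervals from the limma fit, filled points where the test was passed and dashed lines at a fold of 2. Tgfbr1 runs opposite to the other genes in both panels, and Smad3 is open in both.

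The order of the group means shows which neighbours differ. For 8 of the 10 genes, all but Tgfbr1 and Ltbp2, Hepatocyte was lowest, and for Tgfbr1 it was highest. Ltbp2 had HD28 at 3.55 ± 1.13 and Hepatocyte at 3.67 ± 0.41 (SD, n = 3 each) at the bottom, with a difference that did not pass (adjusted p = 0.87). In Smad7 the neighbours HD28 and Hepatocyte differed by 0.71 (adjusted p = 0.068) and did not pass, where 26.5% of all genes passed between these groups. Among MLC, dHD28 and MSC no pair passed for any member, though for Ltbp2 every dHD28 array was below every MLC and MSC array. HD28 was at the top for Tgfb1, Tgfb2, Tgfbr2, Tgfbr3 and Ltbp1, and did not pass against the next group in any of these.

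MLC can be set directly against HD28, at the far ends of the protocols. Smad7 (1.09, SE 0.30, adjusted p = 0.028) and Ltbp2 (4.67, SE 0.52, adjusted p = 9.7e-05) were higher in MLC, 2 of 10 members where 8.11% of all genes passed (4.19% higher). Tgfbr2 (-1.27, adjusted p = 0.14), Tgfbr3 (-1.25, adjusted p = 0.090) and Tgfb1 (-0.84, adjusted p = 0.12) did not pass.

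**Figure D5:**
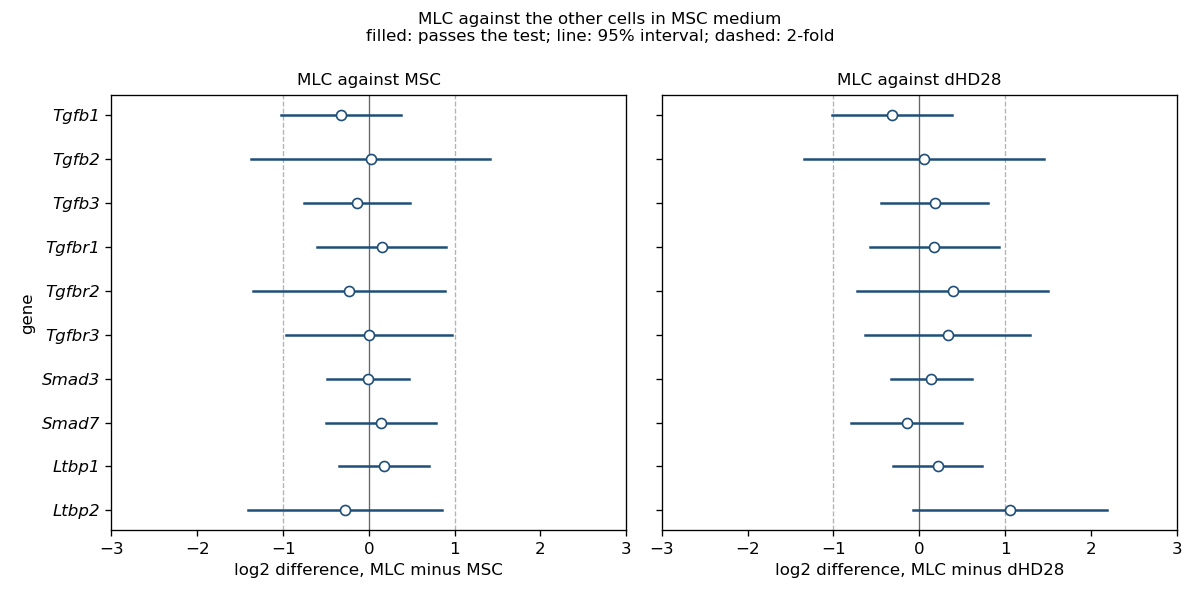
Log2 difference (horizontal axis) of each of the 10 genes (vertical axis) for MLC minus MSC (left) and MLC minus dHD28 (right), with 95% intervals from the limma fit and dashed lines at a fold of 2. No gene passed the test, and the intervals of Tgfb1, Tgfb2, Tgfbr2 and Ltbp2 reach past a fold of 2 in both panels, and that of Tgfbr3 in the right one.

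The absence of a call in MLC against MSC bounds the differences unequally, read by the brightest probe set of each gene. For Smad3 (-0.48 to 0.46), Smad7 (-0.50 to 0.78), Tgfb3 (-0.76 to 0.48), Tgfbr1 (-0.60 to 0.90), Tgfbr3 (-0.96 to 0.96) and Ltbp1 (-0.35 to 0.70) the 95% interval of MLC minus MSC stayed within 1 log2 unit. For Tgfb1 (-1.03 to 0.37), Tgfb2 (-1.37 to 1.41), Tgfbr2 (-1.35 to 0.88) and Ltbp2 (-1.41 to 0.85) a 2-fold difference is inside the interval. Within the classes of control RNA Tgfb2 gave 1.12 (high) and -0.27 (low), and Tgfbr3 gave 0.66 and 0.16.

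Whether the genes changed differently on the ways back to MSC medium was tested as MLC minus Hepatocyte less dHD28 minus HD28. Of 10 members 6 passed, all with the higher value in MLC against Hepatocyte, where 23.7% of all genes passed, 13.8% with the higher value there: Tgfb1 (2.01), Tgfb2 (5.76), Tgfb3 (3.48), Tgfbr2 (4.54), Tgfbr3 (4.05) and Ltbp1 (5.43), with adjusted p-values of 5.3e-07 to 0.0048. Smad7 rose in both, by 1.80 in MLC against Hepatocyte and 1.24 in dHD28 against HD28, and the difference of 0.56 (95% interval -0.35 to 1.47) did not pass (adjusted p = 0.35). Ltbp2 rose by 4.55 and by 3.61, and that difference of 0.94 (-0.66 to 2.54) did not pass either (adjusted p = 0.37). Both of these rises start near the lower quartile, so their sizes are approximate. Read by their brightest probe sets, Tgfbr2 and Tgfbr3 ran in opposite directions, 2.89 and 2.48 in MLC against Hepatocyte and -1.66 and -1.58 in dHD28 against HD28. Smad3 (0.80, adjusted p = 0.069) and Tgfbr1 (-0.95, adjusted p = 0.17) did not pass, though Tgfbr1 did with array weights (-1.24, adjusted p = 0.036) or with centring on housekeeping genes (-1.50, adjusted p = 0.031). The contrast equals HD28 minus Hepatocyte plus MLC minus dHD28, so the gap between the starting cells is part of it. HD28 minus Hepatocyte was 2.33 for Tgfb1, 5.70 for Tgfb2, 3.30 for Tgfb3, 4.15 for Tgfbr2, 3.72 for Tgfbr3 and 5.21 for Ltbp1. All of these passed, where 26.5% of all genes did, and no member passed in MLC minus dHD28. The contrast also differs in starting cell, medium and time, so TGF-β1 in the medium cannot be told apart from these.

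Other genes of the pathway were counted from 6 lists by role. Of all genes, 6.77% passed in HD28 against MSC (3.24% higher and 3.52% lower). In HD28 against MSC, 1 of 13 other ligands was higher and 0 lower, 0 of 10 other receptors and 0 of 6 other Smads passed, 1 of 14 inhibitors and Smad regulators was higher and 1 lower, 0 of 12 storage and activation genes passed, and 0 of 19 targets were higher and 2 lower. At an unadjusted p under 0.05 the limma fit had 4354 of all 18193 genes. Among them were 3 of 13 other ligands, 2 of 10 other receptors and 3 of 6 other Smads. So were 6 of 14 inhibitors and regulators, 3 of 12 storage and activation genes and 7 of 19 targets. The inhibitors and regulators became 2 higher and 2 lower without Hepatocyte replicate 1 or 2. Of the other Smads 1 was lower without HD28 replicate 1, dHD28 replicate 2, Hepatocyte replicate 1 or MLC replicate 1, and 1 storage and activation gene was higher without HD28 replicate 2 or 3. The 2 targets were the contractile genes Cnn1 (calponin) and Tagln (transgelin). Cnn1 read 5.07, 3.82 and 4.90 in HD28, against 9.40, 9.47 and 9.47 in MSC, a difference of -4.85 (SE 0.38, adjusted p = 6.7e-06). Tagln read 8.79, 7.91 and 7.99 in HD28, against 11.64, 11.48 and 11.45 in MSC, a difference of -3.29 (SE 0.46, adjusted p = 5.5e-04). Both were low in all 3 HD28 arrays with no overlap. The median over the 19 targets was 0.20, beside -0.08 over all genes.

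Of the inhibitors, Dcn and Grem1 passed in opposite directions in HD28. Dcn encodes decorin, a matrix proteoglycan that can bind TGF-β, and read 12.30, 12.79 and 12.52 in HD28, against 5.67, 8.62 and 8.49 in MSC (4.94, SE 0.99, adjusted p = 0.0062). Grem1, an antagonist of bone morphogenetic proteins, read 5.87, 5.21 and 5.92 in HD28, against 8.23, 8.95 and 8.48 in MSC (-2.89, SE 0.38, adjusted p = 3.7e-04). The ligand that passed was Inhbb, an activin subunit, higher in HD28 by 2.24 (SE 0.54, adjusted p = 0.019), but not without MSC replicate 1 or HD28 replicate 2 or 3.

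In dHD28 against HD28 Cnn1, Tagln, Grem1, Dcn and Inhbb all passed in the other direction. The share of all genes that passed there was 8.82% (4.63% higher and 4.19% lower). Of the 19 targets Cnn1 (5.16, adjusted p = 4.1e-06) and Tagln (3.67, adjusted p = 2.2e-04) rose and 0 fell. Of the 14 inhibitors and regulators 2 rose, Grem1 (2.67, adjusted p = 5.4e-04) and the TGF-β-induced feedback gene Pmepa1 (1.13, adjusted p = 0.047), and 2 fell, Dcn (-5.82, adjusted p = 0.0018) and the activin antagonist Fst (-3.04, adjusted p = 0.026). Smad6, the other inhibitory Smad, rose by 1.11 (adjusted p = 0.041, 1 of 6), the ligand Inhbb fell (-2.26, adjusted p = 0.015, 1 of 13), and the integrin subunit gene Itgb5 fell (-1.10, adjusted p = 0.0044, 1 of 12 storage and activation genes). None of the 10 other receptors passed. The Smad6 call was lost with the replicate number as a block and without any of 8 single arrays. The Inhbb call was lost without dHD28 replicate 1 or 2, and 2 other ligands were lower without HD28 or dHD28 replicate 3. In the same comparison the counts of inhibitors and regulators changed when any of 12 single arrays was left out. They became 1 higher and 1 lower without any single HD28 array or dHD28 replicate 1 or 2. Leaving out any single MSC or MLC array or dHD28 replicate 3 gave 1 higher and 2 lower. The medians were -0.26 over the targets and 0.41 over the inhibitors, beside 0.05 over all genes.

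In Hepatocyte against MSC the targets had the largest share past the test among the 6 lists. Over all genes the share was 30.1% (11.8% higher and 18.3% lower). Of 19 targets 13 were lower and 1 higher, with a median of -3.20 beside 0.04 over all genes. Col1a1 (-8.84) and Col1a2 (-6.75), the chains of type I collagen, Lox (-8.21), which cross-links collagen, and Acta2 (-6.25), smooth muscle actin, were the largest, with adjusted p-values of 4.1e-10 to 1.9e-06. Of 14 inhibitors and regulators 8 were lower, among them Pmepa1 (-5.39, adjusted p = 8.1e-08), Grem1 (-3.41) and the activin antagonist Fstl3 (-3.14), and Dcn was higher (2.69, adjusted p = 0.040). These counts changed when any of the 15 arrays was left out. The lower ones were 6 without Hepatocyte replicate 1 or 3, 8 without Hepatocyte replicate 2 and 7 without any other single array. The Dcn call was lost without MSC replicate 1, HD28 replicate 2, Hepatocyte replicate 2 or 3, or MLC replicate 1.

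Storage and activation genes were lower in 5 and higher in 1 of 12 cases in Hepatocyte against MSC, led by Thbs1 (-6.14), whose product thrombospondin 1 can activate latent TGF-β, Ltbp3 (-4.23), Emilin1 (-3.96) and Itgb5 (-2.69). Of 6 other Smads, Smad6 (-2.10, adjusted p = 1.4e-04) and Smad2 (-1.19, adjusted p = 3.0e-05) were lower and 0 higher. Other ligands were higher in 3 of 13, Bmp2 (3.49), Gdf10 (2.37) and Bmp6 (1.19), and lower in 1, Bmp4 (-3.08). Of 10 other receptors Acvr2a (2.47) and Eng (1.53) were higher and Cd109 (-2.38) and Acvr1 (-1.59) lower. With 30.1% of all genes past the test, the counts of other Smads, ligands and receptors were near that share. Bmp2 and Eng are genes that liver endothelial cells also express, and the endothelial marker values of the Hepatocyte arrays are given above. The part of those cells was not tested.

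MLC against Hepatocyte gave the targets 13 higher and 1 lower of 19 (median 3.26, beside -0.06 over all genes), with Col1a1 (8.73), Lox (8.37), Col1a2 (6.64) and Acta2 (6.24) at the top. Of 14 inhibitors and regulators 7 were higher, such as Pmepa1 (5.39), Grem1 (3.93) and Fstl3 (3.27), and 1 lower, Dcn (-2.95). Of 12 storage and activation genes 6 were higher, such as Thbs1 (6.58), Ltbp3 (3.99) and Emilin1 (3.94), and 2 lower. The other Smads had 2 of 6 higher, Smad6 (2.23) and Smad2 (1.20). The 13 other ligands had 3 higher, such as Bmp4 (3.05) and the activin subunit gene Inhba (1.62, adjusted p = 0.033), and 3 lower, such as Bmp2 (-3.60) and Gdf10 (-2.17), with 1 higher without Hepatocyte replicate 1. The 10 other receptors had Cd109 (2.49) and Acvr1 (1.46) higher and Acvr2a (-2.40) and Eng (-1.62) lower. Beside these counts, 30.5% of all genes passed in MLC against Hepatocyte (18.4% higher and 12% lower). In dHD28 against MSC, MLC against MSC and MLC against dHD28 no gene of any list passed. At an unadjusted p under 0.05 the limma fit had 1 other ligand and 1 other receptor in dHD28 against MSC and 0 listed genes in the comparisons of MLC with MSC and dHD28.

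Genes most like each member were sought by the root mean square distance between centred log2 profiles over the 15 arrays. Ppm1g (0.11) and Mical2 (0.13) were nearest to Smad7, where the median distance over all genes was 0.89. Nearest to Ltbp2 were Grem1 (0.86) and Cnn1 (0.86), with a median of 2.28 over all genes. Both were also low in HD28 and Hepatocyte, at 5.67 and 5.14 for Grem1 and 4.59 and 4.53 for Cnn1. Nearest to Ltbp1 were Ak1 (0.24) and the matrix gene Sparc (0.26), to Tgfb1 Rgs10 (0.25) and Mrgprf (0.27), to Tgfb2 Gpc6 and Afap1 (both 0.41), and to Tgfb3 Sytl2 (0.23) and Plekha2 (0.27). Tgfbr1 had Ddx19b and Scamp1 (both 0.18), Tgfbr2 had Sgce (0.30) and Jcad (0.35), and Tgfbr3 had Fkbp14 (0.29) and Grasp (0.32). Smad3, whose group means spanned 0.80, was left out by the rule that asks for 1 log2 unit. All arrays of a group share its cells and medium, so these distances describe the groups as much as the genes.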

How the data were processed

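The authors deposited log2 expression values by robust multi-array average (RMA), per the submitters' processing notes, which name no version. The log base was taken as 2 from the values. Per the labels' protocols, cRNA was made from 5 µg of total RNA. Probe sets with exactly 1 gene symbol in the platform annotation were kept (34945 of 45101), symbols were updated through the RefSeq table of GRCm38.p6, and the probe set with the highest mean stood for each gene (18193 genes). The 10 members' 24 probe sets all carried 1 symbol. Group means over all 15 arrays were fitted with limma 3.58.1 in R 4.3.3 (lmFit, eBayes, 10 residual degrees of freedom). P-values are two-sided, adjusted by Benjamini-Hochberg over all genes, or over all named probe sets where several probe sets of a gene are compared. SEs pool the spread of all groups, and intervals are at 95%. The number of arrays limits the precision. The scripts were tested on simulated data.

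Members, gene lists, tests and alternatives were chosen with earlier results of these data known. Named are the members, up to 4 genes past the test with the largest change per list and comparison, and the 2 genes nearest to each member. Listed genes without a probe set of 1 symbol, such as Gdf15, Mstn, Fbn1 and Lrrc32, were not analysed here. Arrays were classed by the mean of the poly-A control probe sets, at the widest gap. Same-number arrays deviated together in all 3 pairs of dHD28 and HD28 (correlations 0.32, 0.28 and 0.12). They did so in MLC and dHD28 (0.21, 0.78 and 0.60) and in Hepatocyte and MSC (0.25, 0.23 and 0.07). The other comparisons had both signs. The labels do not say that the numbers pair samples. The replicate number was tried as a block, while the main fit has group as its only term and pairs no arrays. In dHD28 and HD28, and in Hepatocyte and MSC, arrays of the same number also share the control RNA class, so pairing and class cannot be told apart there. Alternatives were other treatments of probe sets and dim genes, quantile normalization again, centring on array medians or on housekeeping genes, trend and robust priors, array weights, the replicate or the control RNA class as a block, no fold limit, only the arrays compared, and each array left out.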

Additional observations from a re-analysis of the deposited data

Results flagged for a closer look

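For 6 genes the change on the way back to MSC medium differed between the cells that came from hepatocytes and those that came from HD28, by a test of the difference itself (MLC minus Hepatocyte, less dHD28 minus HD28). The difference was 2.01 for Tgfb1 (1.49 and -0.52), 5.76 for Tgfb2 (4.87 and -0.89), 3.48 for Tgfb3 (3.59 and 0.11), 4.54 for Tgfbr2 (2.89 and -1.66), 4.05 for Tgfbr3 (2.48 and -1.58) and 5.43 for Ltbp1 (5.14 and -0.29). The adjusted p-values in limma were 5.3e-07 to 0.0048. The gap between the starting cells, HD28 minus Hepatocyte, is part of this difference, and no member passed between the end points MLC and dHD28. Each of these held under all 27 alternatives, except Tgfb1 with the mean of its probe sets, where the difference of 0.89 was under the fold limit (adjusted p = 0.036). Without HD28 replicate 3, the array with hepatocyte marker signal, they were 2.17, 5.97, 3.44, 4.60, 4.07 and 5.41 in the same order of genes. With 3 arrays a group, no outlier test was run.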

How the results depend on the processing

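With 3 arrays a group, intervals of about 1 log2 unit each side for the receptors and Tgfb2 limit what can be seen, and values near the lower quartile carry little information on size. No member's difference that passed, as reported or under an alternative, changed sign, while 67 of 2230 member values, none past the test, did so. In HD28 against MSC, where 1 member passed, 2 passed with the mean of all probe sets or with the control RNA class as a block (Tgfbr3 added), 3 with that block and HD28 replicate 3 left out (Tgfb2 and Tgfbr3 added), and 1 to 2 with each array left out (Tgfbr2 added without Hepatocyte replicate 1). In dHD28 against HD28, where 4 passed, 1 to 4 passed with each array left out: 2 without any HD28 array, and 1, Ltbp2, without dHD28 replicate 1 or 2. The other 7 counts of members stayed within 1.5 times under every alternative, and the replicate block kept the counts at 1 in HD28 against MSC, 4 in dHD28 against HD28 and 9 in Hepatocyte against MSC, and changed no member's call, though the count of other Smads in dHD28 against HD28 became 0, against 1, and that of storage and activation genes in HD28 against MSC 1, against 0. Among single members 27 calls were lost and 11 gained over the alternatives, 13 of the losses in Tgfbr2 for dHD28 against HD28.

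Centring on 7 housekeeping genes moved the median of all genes in Hepatocyte against MSC to 0.71, against 0.04, and in MLC against Hepatocyte to -0.78, against -0.06. Genes past the test became 5248 higher and 1848 lower, beside 2149 and 3327 as reported, and 1805 higher and 6197 lower, beside 3353 and 2188. In HD28 against MSC the median moved to 0.06, against -0.08, with 693 higher and 491 lower, beside 590 and 641, and in dHD28 against HD28 to -0.12, against 0.05, with 626 and 953, beside 843 and 762. All members kept their sign under this centring in Hepatocyte against MSC and MLC against Hepatocyte, but Smad7 (-0.99 in Hepatocyte against MSC) and Tgfb1 (0.77 in MLC against Hepatocyte) went under the fold limit, and Smad3 came near 0 (-0.13 and 0.07). With this centring or quantile normalization again, 1 of the other Smads passed in these comparisons, against 2.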
